A study of Mus musculus with 2 samples.

Results

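The collagen chain genes of the mouse were taken as every gene in the deposited matrices whose symbol has the form Col, a number, a and a number, which gave 44 of the 19059 genes measured. By the structure their products build, 11 of the 44 were grouped as fibrillar, 8 as basement membrane and 25 as other. Fibrillar chains wind into triple helices that pack into the banded fibers of connective tissue, with type I and type III collagen made mainly by fibroblasts. Type IV chains instead form the flat network of basement membranes, the sheets that lie under blood vessel endothelium and around muscle fibers, and the remaining chains decorate fibers, form beaded filaments or short networks, or span the cell membrane. In a sarcoma, both the tumor cells and the host stroma can be a source of these chains.

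The tumors came from dFLEx CDS mice, which carry an inverted CIC::DUX4 fusion cassette at the Rosa26 locus that Cre and FLPE recombinases turn on. Plasmids with the CAG promoter brought both recombinases into the hind limb muscle by electroporation, so host fibroblasts, vessels and immune cells remained. A total of 4 tumors were untreated, labelled dFLEx CDS +/- with no treatment, and 4 came from mice of the dFLEx CDS line given 0.42 mg/kg Minnelide, a water-soluble prodrug of the transcription inhibitor triptolide, for 21 days. The labels gave no age or sex, and a genotype only for the untreated group. Single nuclei were sequenced, and values are UMI counts (molecules counted once each) scaled to CPM (the UMIs of a gene per 1000000 UMIs of all genes in the same nuclei). Tumor numbers are names and pair no tumors, and p-values measure the spread between these tumors.

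Between 18487409 and 73211599 UMIs were deposited per tumor, and 59907 of 72338 nuclei were retained, 4470 to 10368 per tumor, with a median of 880 to 4056 UMIs. Nuclei were sorted into classes by markers that held no collagen gene. Tumor-like nuclei made up 52.2% of those retained and fibroblast-like nuclei 11.7%, while myocyte-like (7.8%), endothelial-like (4.8%), macrophage-like (2.0%), osteoclast-like (1.2%) and pericyte-like nuclei (1.0%) were fewer. A further 19.4% carried markers of unrelated classes at once and stayed unnamed. These were 6152 nuclei of untreated 4, 2500 of untreated 1 and 1797 of Minnelide 2 but 6 to 599 of the other tumors, so the named classes left out unequal parts of the tumors. Different clusters held the tumor-like nuclei of different tumors: the main tumor-like clusters of untreated 1, untreated 4 and Minnelide 1 to 4 drew 97.1 to 99.7% of their nuclei from that tumor. For untreated 1 this also held for fibroblast-like, endothelial-like and myocyte-like nuclei, while the fibroblast-like nuclei of the other 7 tumors shared a cluster. Untreated 4 had the lowest median UMI count, and also had 10.9 CPM summed over 4 Y-linked genes, against 438 to 742 CPM in the other tumors. Pericyte-like nuclei of untreated 1 and Minnelide 4 and macrophage-like nuclei of untreated 1 numbered under 20 and gave no value. In 4 of 28 pairs of tumors 49 to 132 cell barcodes were shared, and 0 in the others. Each of these pairs joined an untreated with a Minnelide tumor, and no pair within a group shared a barcode. Whether each group was captured as a pool of its own was not tested, and if so, capture and treatment cannot be told apart. Because free RNA adds UMIs to nuclei that do not express a gene, the level in macrophage-like nuclei of the same tumor is given beside the levels of other classes. This reference held many tumor-marker UMIs. Summed over 8 tumor markers, macrophage-like nuclei had 35.0 to 58.8% of the tumor-like level in untreated and 40.4 to 69.3% in Minnelide tumors. In fibroblast-like nuclei the same sum was at 17.3 to 34.7% and 31.9 to 52.0%. For genes led by tumor-like nuclei the reference may therefore be high. In all retained nuclei, fewer cells of a type and less RNA per cell cannot be told apart.

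The 44 genes lie on 15 chromosomes (GENCODE M39, GRCm39), and several are neighbors. Col4a1 and Col4a2 are head to head on chromosome 8 and overlap by 356 bases, Col4a4 and Col4a3 are head to head on chromosome 1 and overlap by 159 bases, and Col4a6 and Col4a5 are head to head on chromosome X with 1281 bases between them. Col3a1 and Col5a2 lie tail to tail on chromosome 1, 16713 bases apart. A total of 8 genes overlap another measured gene, so their counts could hold reads of the partner. Across the 53 combinations of tumor and class, which share libraries and depth, log2(CPM + 1) of Col4a1 and Col4a2 had a Pearson r of 0.96 and that of Col4a6 and Col4a5 one of 0.92, whereas Col4a1 and Col4a5 had an r of -0.02. The unlinked partners Col1a1 and Col1a2, whose products form the same trimer, had an r of 0.92. The 250 bases before the RefSeq start (GRCm38.p6) are shown for Col4a5, Col4a6 and Col8a1, with CCAAT and GGGCGG in capitals on either strand (the motifs do not overlap each other). Col4a5 and Col4a6 are a pair taken up in the treatment comparison below, where edgeR called neither gene. Col8a1 varied widely between untreated tumors. The windows lie at chrX:141475169-141475418 on the plus strand, chrX:141474077-141474326 on the minus strand and chr16:57754738-57754987 on the minus strand.
Col4a5: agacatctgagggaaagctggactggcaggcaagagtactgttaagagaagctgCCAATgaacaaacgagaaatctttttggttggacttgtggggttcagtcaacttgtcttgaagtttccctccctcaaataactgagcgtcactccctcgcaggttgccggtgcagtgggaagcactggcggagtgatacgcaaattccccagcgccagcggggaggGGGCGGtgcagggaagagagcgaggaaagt
Col4a6: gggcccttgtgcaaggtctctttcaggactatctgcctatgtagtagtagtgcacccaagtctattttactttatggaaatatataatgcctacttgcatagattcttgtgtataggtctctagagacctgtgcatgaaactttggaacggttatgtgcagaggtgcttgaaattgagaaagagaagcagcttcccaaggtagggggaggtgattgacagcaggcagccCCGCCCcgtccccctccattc
Col8a1: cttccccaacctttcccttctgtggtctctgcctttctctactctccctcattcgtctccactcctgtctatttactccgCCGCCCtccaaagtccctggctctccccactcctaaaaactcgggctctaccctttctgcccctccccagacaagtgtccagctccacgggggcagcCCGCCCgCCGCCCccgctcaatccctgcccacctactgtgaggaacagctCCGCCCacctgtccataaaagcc

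The table of RefSeq promoters held 38 entries for 35 of the 44 genes. GGGCGG was present in 57.9% of the 38 and in 32.74% of all 32851 promoters, and CCAAT in 34.2% and 33.85%. The octamer bound by CIC (TGAATGAA, TGAATGGA, TCAATGAA or TCAATGGA, either strand) was in 0 of the 38 windows and in 3.19% of all. These are matches of letters in a 250-base window only.

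Collagen genes differed in the class of nuclei where they were highest. By the mean over tumors, 17 of the 44 genes were highest in fibroblast-like nuclei, 10 in tumor-like, 7 in pericyte-like, 6 in myocyte-like, 3 in endothelial-like, 1 in osteoclast-like and 0 in macrophage-like nuclei. Of the fibrillar genes 7 of 11 were highest in fibroblast-like nuclei, but of the basement membrane genes 0 of 8 were. The classes were built without these genes, and the levels are given as a description.

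**Figure D1:**
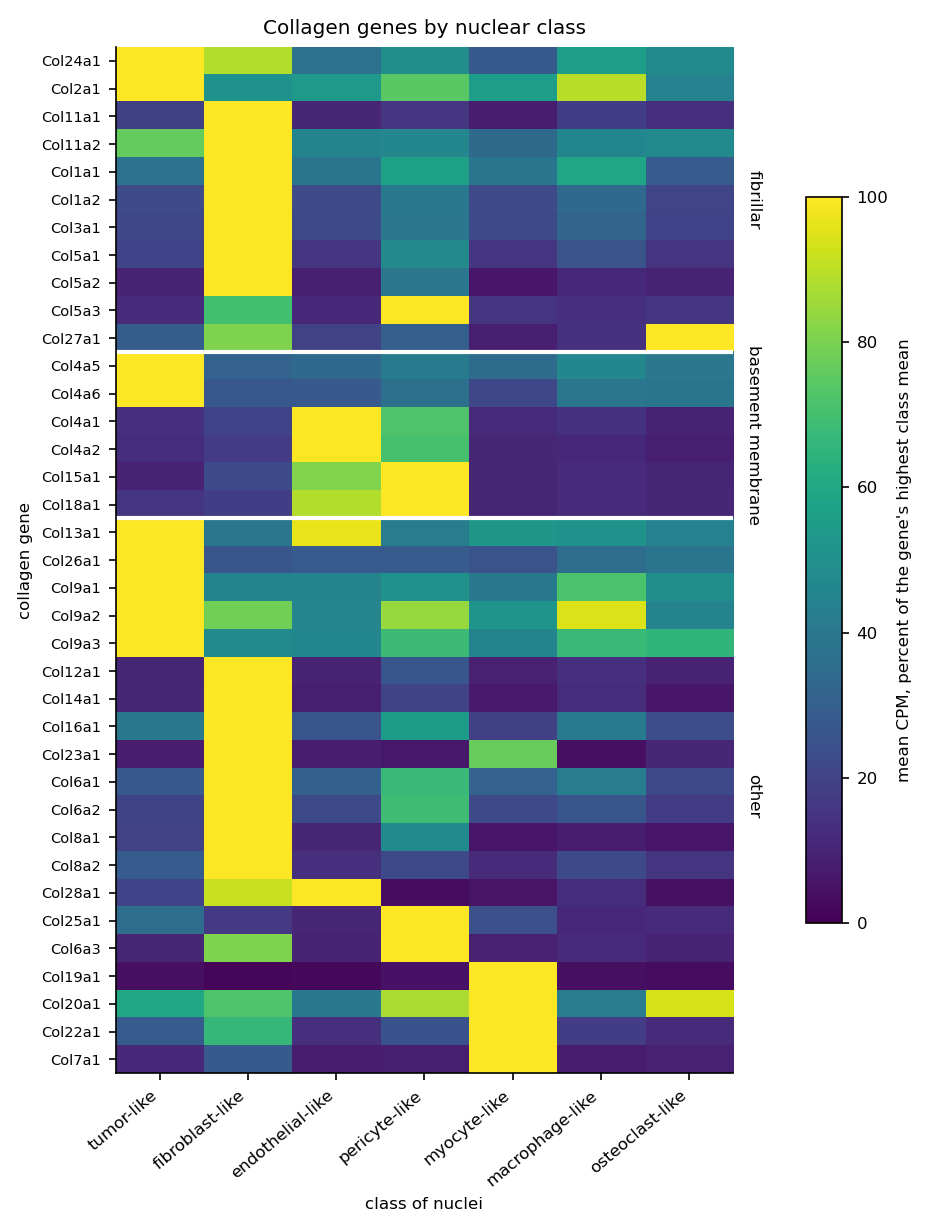
Mean CPM over tumors of each collagen gene (rows) in each class of nuclei (columns), as a percent of that gene's highest class mean, for genes that reach 10 CPM in a class. Of the fibrillar genes 7 of 11 are brightest in fibroblast-like nuclei, Col4a1 and Col4a2 in endothelial-like nuclei, and Col4a5, Col4a6, Col26a1 and Col9a1 in tumor-like nuclei.

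Col1a1, Col1a2 and Col3a1, the chains of type I and type III collagen, were highest in fibroblast-like nuclei in 8 of 8 tumors. In these nuclei Col1a1 was at 1188, 6732, 3098 and 1004 CPM in untreated 1 to 4 and at 2447, 1301, 1859 and 4864 CPM in Minnelide 1 to 4. Untreated 2 and Minnelide 4 were the high tumors, and the groups overlapped. Col1a2 was at 1526, 6388, 3401 and 1929 CPM in the untreated and at 2604, 1532, 2409 and 4204 CPM in the Minnelide tumors, again with untreated 2 on top. Col3a1 varied less, from 1983 to 3809 CPM. The level in tumor-like nuclei was lower in every tumor, by a median of 2.46-fold for Col1a1, 4.03-fold for Col1a2 and 4.48-fold for Col3a1.

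In tumor-like nuclei all of Col1a1, Col1a2 and Col3a1 lay below the macrophage-like level in 7 of 7 tumors with both classes. For Col1a1, tumor-like nuclei of untreated 2 had 2779 CPM and macrophage-like nuclei 3698 CPM, and in Minnelide 1 the values were 982 and 1629 CPM. Col12a1 and Col6a1 were likewise below the macrophage-like level in all 7. The type I and type III UMIs in tumor-like nuclei thus did not exceed the level in macrophage-like nuclei. That level was itself high. Col1a1 exceeded it in 0 of 7 tumors in endothelial-like, myocyte-like and osteoclast-like nuclei, and in 1 of 6 in pericyte-like nuclei. The part of free RNA in the tumor-like and macrophage-like values was not tested. In fibroblast-like nuclei 23 of the 44 genes lay above the macrophage-like level in all 7 tumors, and in tumor-like nuclei 10 did.

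**Figure D2:**
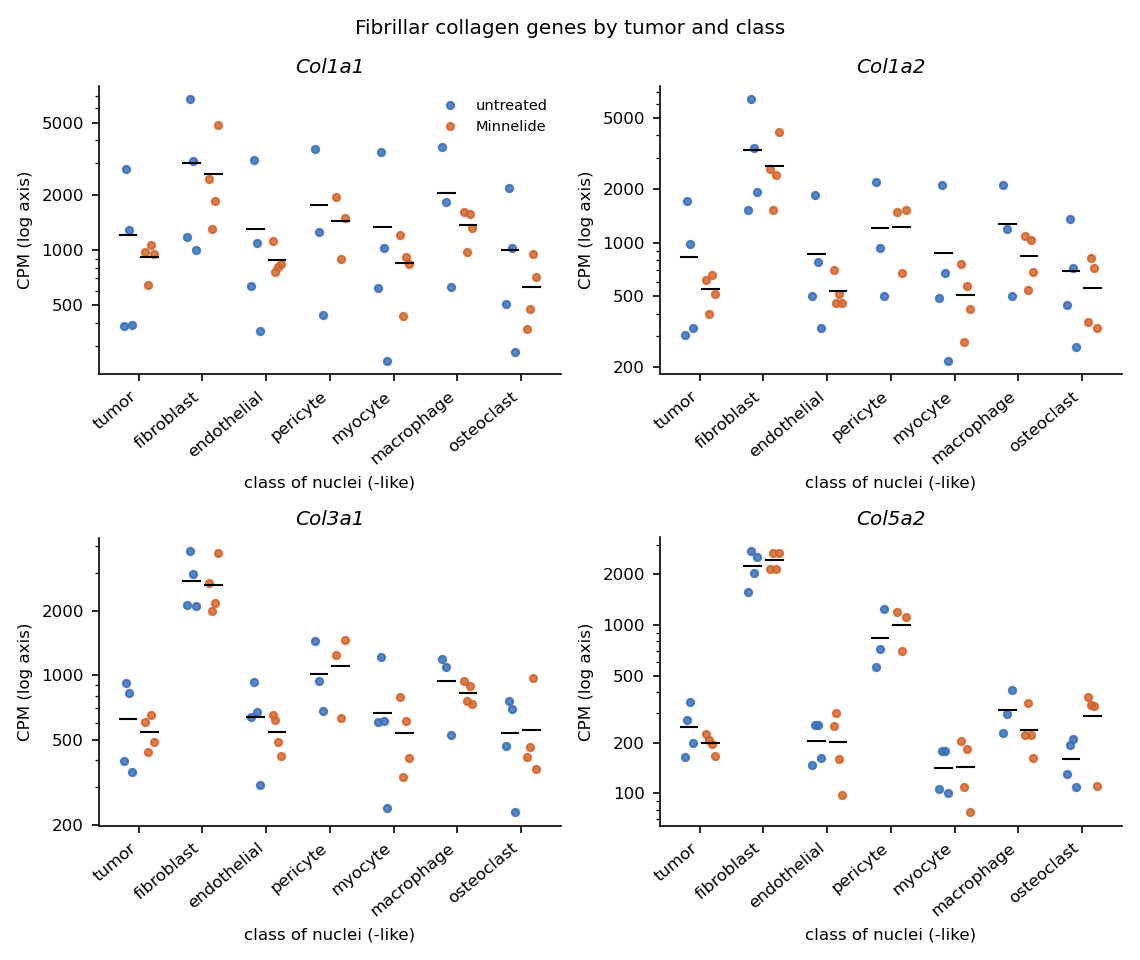
CPM on a log axis of Col1a1, Col1a2, Col3a1 and Col5a2 in each class of nuclei, a point per tumor and a black line at the group mean, untreated in blue and Minnelide in orange. Fibroblast-like nuclei have the highest means for all 4 genes, and the treatment groups overlap there.

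Col5a1, Col5a2 and Col11a1, chains of type V and XI collagen, which regulate the width of type I fibers, were also highest in fibroblast-like nuclei in 8 of 8 tumors. Col5a2 was at 1581 to 2774 CPM in fibroblast-like nuclei of the 8 tumors, a median of 10.6-fold over tumor-like nuclei. Col5a1 reached a mean of 674 CPM in fibroblast-like nuclei and 316 CPM in pericyte-like nuclei, against 135 CPM in tumor-like nuclei. Col11a1 had the largest lead of any gene in fibroblast-like nuclei over the next class, with a mean of 722 CPM against 137 CPM in tumor-like nuclei (5.28-fold) and first place in 8 of 8 tumors. In untreated 1 it was at 144 CPM, below the other 7 tumors (411 to 1260 CPM). Col5a3, by contrast, was highest in pericyte-like nuclei (300 CPM) ahead of fibroblast-like nuclei (209 CPM). Col11a2 was highest in fibroblast-like nuclei in 2 of 8 tumors, and its mean there of 15.6 CPM, against 11.9 CPM in tumor-like nuclei, rested on untreated 2 at 70.4 CPM.

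Of the remaining fibrillar genes, Col24a1 and Col2a1 were highest in tumor-like nuclei and Col27a1 in osteoclast-like nuclei. Col24a1 was at 78.5, 614, 579 and 447 CPM in tumor-like nuclei of untreated 1 to 4 and at 887, 278, 824 and 365 CPM in Minnelide 1 to 4, and it exceeded the macrophage-like level in 7 of 7 tumors. Fibroblast-like nuclei were close behind (449 against 509 CPM on average) and exceeded the tumor-like level in 4 of 8 tumors. Col2a1, the main chain of cartilage, was at 22.3 CPM in tumor-like nuclei of untreated 1 and at 169 to 285 CPM in the other 7. Its macrophage-like mean of 174 CPM stood near the tumor-like mean of 194 CPM, although the tumor-like level was the higher in 6 of 7 tumors. Col27a1 had a mean of 354 CPM in osteoclast-like nuclei (lowest in Minnelide 1, at 64.7 CPM), 286 CPM in fibroblast-like nuclei and 50.5 CPM in macrophage-like nuclei. Osteoclast-like nuclei were few, from 38 to 198 per tumor.

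Basement membrane genes divided into a vascular and a tumor-like set. Col4a1 and Col4a2, whose chains form the ubiquitous type IV trimer, had means of 1498 and 1053 CPM in endothelial-like nuclei and 1086 and 746 CPM in pericyte-like nuclei. In tumor-like nuclei they had 211 and 136 CPM, beside 218 and 117 CPM in macrophage-like nuclei. Col15a1 and Col18a1, the precursors of restin and endostatin, were at 264 and 324 CPM in endothelial-like and at 325 and 366 CPM in pericyte-like nuclei, and were above the macrophage-like level in endothelial-like nuclei in 7 of 7 tumors. Between endothelial-like and pericyte-like nuclei the order was not uniform. Col4a1 was highest in endothelial-like nuclei in 6 of 8 tumors, but 2 of these, untreated 1 and Minnelide 4, had no pericyte-like value. In Minnelide 1 and Minnelide 3 it was higher in pericyte-like nuclei (1589 against 928 CPM and 1497 against 1371 CPM). Col15a1 was highest in pericyte-like nuclei in 3 of the 6 tumors with a value.

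Col4a5 and Col4a6, chains that build an alternative type IV network, were highest in tumor-like nuclei in 8 of 8 tumors. Col4a5 was at 486, 524, 350 and 332 CPM in tumor-like nuclei of untreated 1 to 4 and at 477, 484, 559 and 928 CPM in Minnelide 1 to 4. Col4a6 was at 230, 607, 429 and 394 CPM in the untreated and at 489, 575, 648 and 1395 CPM in the Minnelide tumors. Minnelide 4 was the highest tumor for both, and the groups overlapped. Their mean in macrophage-like nuclei was 239 and 234 CPM, below the tumor-like level in 7 of 7 tumors. Col4a3 and Col4a4, the third pair, had no class mean of Col4a3 above 7.81 CPM and no class mean of Col4a4 above 4.89 CPM.

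**Figure D3:**
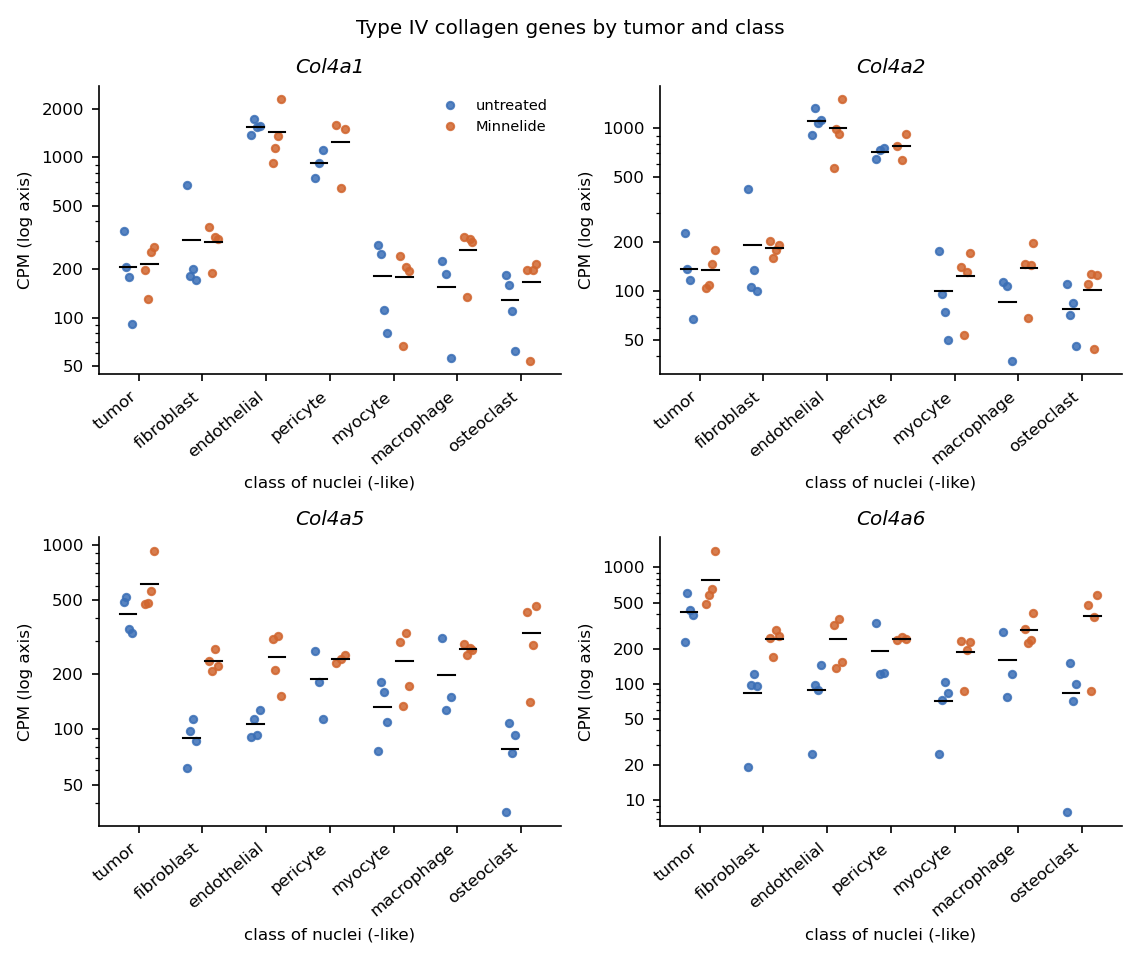
CPM on a log axis of Col4a1, Col4a2, Col4a5 and Col4a6 by class of nuclei, a point per tumor and a black line at the group mean. Col4a1 and Col4a2 peak in endothelial-like and pericyte-like nuclei, Col4a5 and Col4a6 in tumor-like nuclei, and the Minnelide points of Col4a5 lie above the untreated ones in fibroblast-like, endothelial-like and osteoclast-like nuclei.

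Among the other chains, those that coat or link fibers belonged mainly to fibroblast-like nuclei. Col12a1 and Col14a1, fiber-associated collagens with interrupted helices, averaged 2049 and 285 CPM there, a median of 9.36-fold and 9.54-fold over tumor-like nuclei, and Col16a1 averaged 115 CPM. The beaded filament genes Col6a1, Col6a2 and Col6a3 averaged 148, 169 and 589 CPM in fibroblast-like nuclei and 100.3, 116 and 730 CPM in pericyte-like nuclei. Col8a1, a short-chain network collagen, averaged 2112 CPM in fibroblast-like nuclei (1021 CPM in Minnelide 2 to 4303 CPM in Minnelide 3) and its partner Col8a2 59.4 CPM.

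Muscle had its own chains. Col19a1 averaged 293 CPM in myocyte-like nuclei, 21.2-fold over the next class. It was first in 8 of 8 tumors, from 107 CPM in Minnelide 1 to 538 CPM in Minnelide 4. Myocyte-like nuclei numbered 35 in Minnelide 4 and 57 in Minnelide 3, against 1740 in Minnelide 2. Col7a1, the anchoring fibril chain, averaged 38.9 CPM in myocyte-like nuclei and 10.95 CPM in fibroblast-like nuclei, and Col22a1, known from muscle and tendon junctions, 25.6 CPM against 17.0 CPM, the latter with an SD of 35.9 CPM over 8 tumors. Col23a1, a membrane-spanning chain, was shared by fibroblast-like (224 CPM) and myocyte-like nuclei (172 CPM), with 9.33 CPM in macrophage-like nuclei. Col25a1, another membrane-spanning chain, averaged 252 CPM in pericyte-like nuclei and 90.0 CPM in tumor-like nuclei. Col28a1 averaged 29.0 CPM in endothelial-like and 26.6 CPM in fibroblast-like nuclei, with untreated 1 at 104 CPM in endothelial-like nuclei and the other tumors at 8.34 to 25.5 CPM.

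Col26a1 and Col9a1 were highest in tumor-like nuclei in 8 of 8 tumors. Col26a1 was at 195, 573, 564 and 661 CPM in untreated 1 to 4 and at 541, 480, 368 and 716 CPM in Minnelide 1 to 4. Col9a1, a chain of the type IX collagen of cartilage fibers, was at 20.7, 270, 266 and 258 CPM in the untreated and at 366, 268, 342 and 569 CPM in the Minnelide tumors. Untreated 1 was the lowest of the 8 tumors for both. Macrophage-like nuclei had a mean of 182 CPM of Col26a1 and 211 CPM of Col9a1. Col9a2 and Col9a3, the partners of Col9a1, averaged 15.2 and 24.6 CPM in tumor-like nuclei, and Col13a1 was about as high in tumor-like (210 CPM) as in endothelial-like nuclei (203 CPM). The genes nearest to a lead in macrophage-like nuclei were Col9a2, at 14.4 CPM, Col2a1 and Col9a1. Col20a1 stayed at or below 16.3 CPM in every class mean. Col6a4 and Col17a1 were under 1 CPM in all retained nuclei of every tumor, although Col6a4 averaged 6.69 CPM in pericyte-like nuclei.

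**Figure D4:**
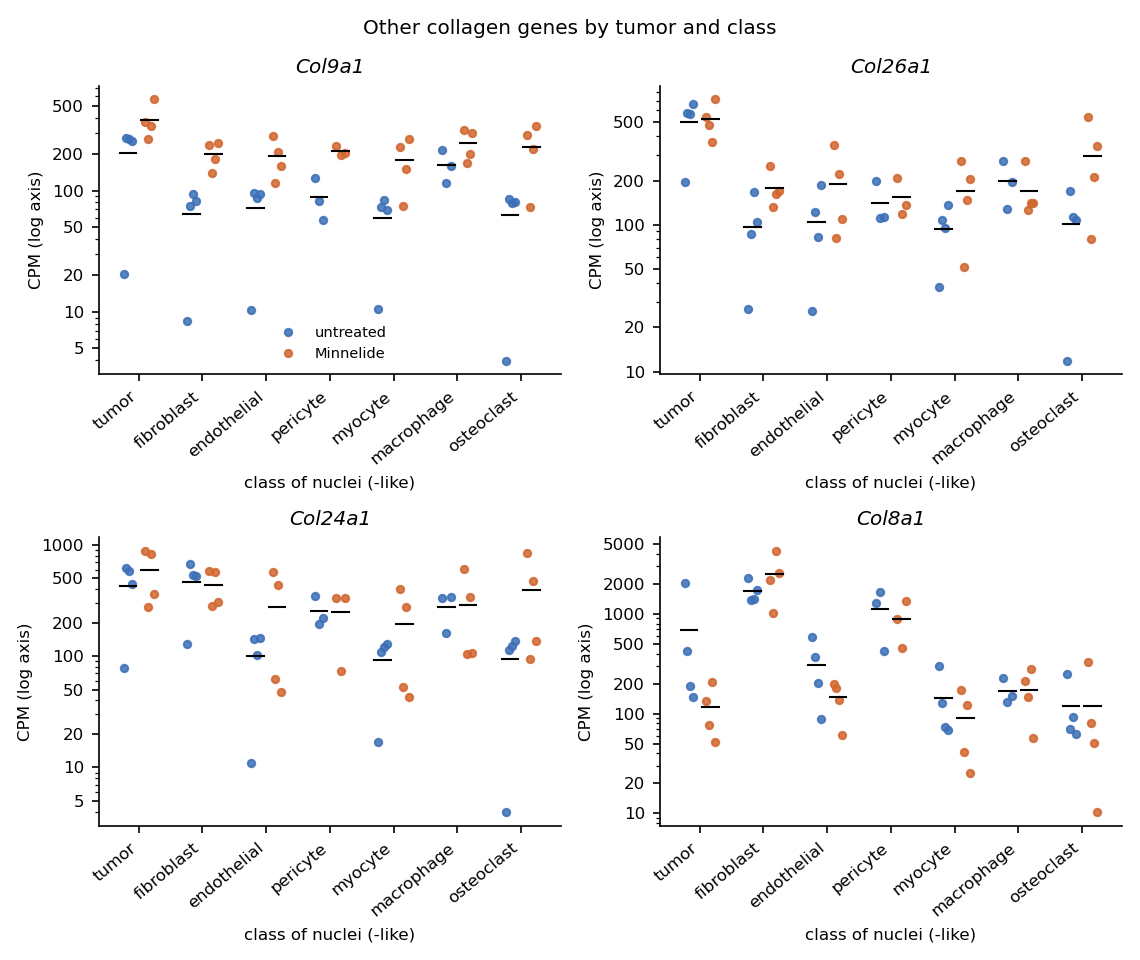
CPM on a log axis of Col9a1, Col26a1, Col24a1 and Col8a1 by class of nuclei, a point per tumor and a black line at the group mean, untreated in blue and Minnelide in orange. Untreated 1 is the low untreated point for Col9a1, Col26a1 and Col24a1 in tumor-like nuclei and the high point for Col8a1, at 2018 CPM.

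No collagen gene differed between Minnelide and untreated tumors at an adjusted p below 0.05 by edgeR's quasi-likelihood test with Benjamini-Hochberg adjustment in all retained nuclei, in any class fitted or in the contrast between classes, and 0% of all genes tested did. Macrophage-like and osteoclast-like nuclei were not fitted. Of the 44 genes, 43 passed the low-count filter in all retained nuclei, 41 in tumor-like, 38 in fibroblast-like, 30 in endothelial-like, 27 in pericyte-like and 33 in myocyte-like nuclei. DESeq2 called Col4a5 in fibroblast-like nuclei, where it called 0.245% of all genes, and in endothelial-like nuclei, where it called 0.194%. It called 0 collagen genes in all retained nuclei (1.31% of all genes called), tumor-like (1.36%), pericyte-like (0.0521%) and myocyte-like nuclei (0%) and in the contrast between classes (0.142%).

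At an unadjusted p below 0.05, counts of collagen genes stayed small. In all retained nuclei 2 were higher (Col4a5 and Col4a6, where 2.48% of all genes were) and 3 lower (Col27a1, Col5a3 and Col6a6, 7.49%) with Minnelide. Tumor-like nuclei had 1 higher (Col4a5, 2.84%) and 3 lower (Col8a1, Col23a1 and Col6a6, 7.94%), and fibroblast-like nuclei 4 higher (Col4a5, Col4a6, Col9a1 and Col9a3, 2.86%) and 1 lower (Col11a2, 3.97%). Endothelial-like nuclei had 3 higher (Col4a5, Col4a6 and Col9a1, 3.89%) and 1 lower (Col23a1, 4.64%). Pericyte-like nuclei had 2 higher (Col2a1 and Col9a1, 2.41%) and 0 lower (2.69%), and myocyte-like nuclei 3 higher (Col4a5, Col4a6 and Col9a1, 1.59%) and 0 lower (1.76%). Leaving out untreated 1 took the total from 5 to 14 in all retained and from 5 to 13 in fibroblast-like nuclei, while leaving out Minnelide 4 took it to 0 in all retained nuclei. Over all genes, 342 were higher and 1035 lower of 13811 in all retained nuclei. These counts were 391 and 858 of 13875 without untreated 1, and 221 and 886 of 14032 without Minnelide 4. In fibroblast-like nuclei they were 327 and 454 of 11433, and 443 and 527 of 11441 without untreated 1. The median log2 fold change of the genes tested was -0.11 in tumor-like and -0.03 in fibroblast-like nuclei, where the medians of all genes were -0.01 and -0.02.

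**Figure D5:**
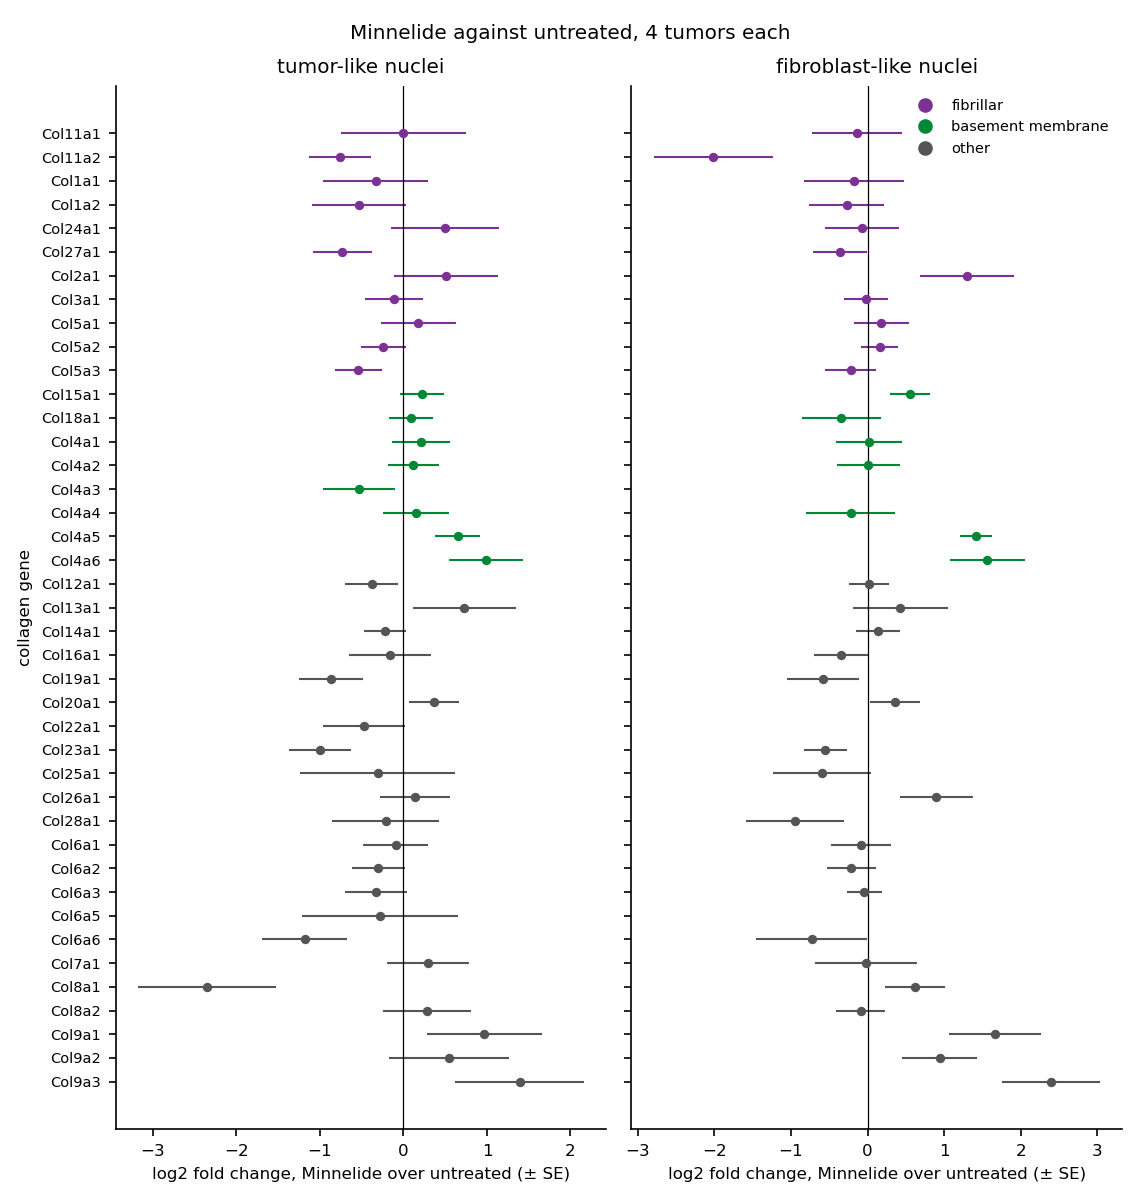
Log2 fold change of Minnelide over untreated with its standard error for each collagen gene tested in tumor-like (left) and fibroblast-like nuclei (right), colored by group. Col4a5 and Col4a6 lie to the right of 0 in both, Col9a3 is farthest right in fibroblast-like nuclei (2.39), and Col8a1 farthest left in tumor-like nuclei (-2.35).

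Col4a5 had the smallest p of all collagen genes in fibroblast-like nuclei. It was at 61.4, 97.8, 114 and 87.0 CPM in untreated 1 to 4 and at 236, 208, 272 and 220 CPM in Minnelide 1 to 4. All 4 Minnelide tumors lay above all 4 untreated ones, with a log2 fold change of 1.42 ± 0.21 (SE, n = 4 and 4), an adjusted p of 0.514 by edgeR and 5.44e-05 by DESeq2. Col4a6 was at 19.2, 97.2, 122 and 95.8 CPM in the untreated and at 250.2, 170, 293 and 256 CPM in the Minnelide tumors, also without overlap (log2 fold change 1.56 ± 0.49, edgeR adjusted p = 0.724). In endothelial-like nuclei Col4a5 was at 90.9, 114, 93.7 and 128 CPM against 307, 209, 321 and 153 CPM, again without overlap (log2 fold change 1.26 ± 0.26, adjusted p = 0.576 by edgeR and 0.0207 by DESeq2). There Col4a6 overlapped between groups (1.49 ± 0.52, edgeR adjusted p = 0.576).

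The same pair was highest in tumor-like nuclei, where the difference was smaller: 0.65 ± 0.27 for Col4a5 (edgeR adjusted p = 0.458) and 0.99 ± 0.44 for Col4a6 (0.463). Leaving out Minnelide 4 took the value for Col4a5 in tumor-like nuclei to 0.37. In osteoclast-like nuclei, which were not fitted, Col4a5 was at 35.5, 108, 74.7 and 93.0 CPM in the untreated and at 433, 141, 288 and 463 CPM with Minnelide. Macrophage-like nuclei held 311, 127 and 150 CPM of Col4a5 in untreated 2 to 4 and 289, 251, 277 and 269 CPM in Minnelide 1 to 4. Thus Col4a5 was higher without overlap in 3 classes, all below the tumor-like level. For 1 of these, the osteoclast-like nuclei, no share over all genes is given. It overlapped between groups in tumor-like, macrophage-like, pericyte-like and myocyte-like nuclei.

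Markers of tumor-like nuclei moved with these values. Summed over 8 tumor markers, fibroblast-like nuclei had 2285 to 5373 CPM in untreated and 5214 to 10808 CPM in Minnelide tumors, and 8 of 8 markers had the higher mean with Minnelide. Endothelial-like nuclei had 2447 to 7307 CPM and 3792 to 14937 CPM, again with 8 of 8 higher, and none of the 8 was at 0. As a percent of the tumor-like level in the same tumor, Col4a5 in fibroblast-like nuclei was at 12.6 to 32.5% in untreated and 23.7 to 49.4% in Minnelide tumors, and the marker sum at 17.3 to 34.7% and 31.9 to 52.0%. Osteoclast-like nuclei had a marker sum of 1865 to 5449 CPM in untreated and 4315 to 18763 CPM in Minnelide tumors, with 8 of 8 higher. Their Col4a5 was at 7.30 to 28.0% and 29.1 to 90.7% of the tumor-like level, and the marker sum at 14.1 to 31.5% and 30.3 to 90.2%. Osteoclast-like nuclei of Minnelide 1 had a median of 19917 UMIs, against 2530 to 5973 in the other tumors. The part of tumor-cell RNA in the Col4a5 and Col4a6 values was not tested. Both genes are X-linked, and without untreated 4, the tumor with few Y-linked UMIs, the log2 fold change of Col4a5 was 1.42 in fibroblast-like and 1.39 in endothelial-like nuclei.

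Col9a1 and Col9a3, also highest in tumor-like nuclei, shifted in the same direction in fibroblast-like nuclei. Col9a1 was at 8.40, 74.2, 93.6 and 82.8 CPM there in untreated 1 to 4 and at 239, 140, 183 and 245 CPM in Minnelide 1 to 4 (log2 fold change 1.66 ± 0.60, edgeR adjusted p = 0.724). Col9a3 was at 0.933, 3.19, 4.87 and 6.77 CPM against 36.2, 8.21, 11.5 and 22.2 CPM (2.39 ± 0.64, adjusted p = 0.719). Neither gene overlapped between groups, so that 4 of the 38 collagen genes tested in fibroblast-like nuclei were higher in all 4 Minnelide tumors, where 1.6% of all genes were, and 0 were lower in all (3.21%). In endothelial-like nuclei Col9a1 was at 10.3, 95.03, 86.9 and 93.1 CPM against 281, 116, 210 and 160 CPM (1.46 ± 0.57, edgeR adjusted p = 0.576), and 2 of 30 genes were higher without overlap (1.74% of all genes) and 0 lower (2.66%). In pericyte-like nuclei, with 3 tumors a group, Col9a1 (1.24 ± 0.28) and Col2a1 (0.88 ± 0.31) had edgeR adjusted p-values of 0.849 and 0.949. These were the 2 of 27 genes higher without overlap (5.42% of all genes), and 0 were lower (4.89%). The tumor marker sum in pericyte-like nuclei was 5697 to 10733 CPM in untreated and 6612 to 11579 CPM in Minnelide tumors, with 2 of 8 markers at the higher mean with Minnelide. Myocyte-like nuclei had log2 fold changes of 1.29 ± 0.44 for Col4a6, 1.51 ± 0.57 for Col9a1 and 0.79 ± 0.35 for Col4a5 (edgeR adjusted p = 0.999 each), with 0 of 33 genes free of overlap (1.12% of all genes higher and 1.19% lower). The tumor marker sum in myocyte-like nuclei was 2070 to 4715 CPM in untreated and 3125 to 11196 CPM in Minnelide tumors, with 8 of 8 markers at the higher mean with Minnelide, and its part in these values was not tested.

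Lower values with Minnelide rested on other genes. Col8a1 in tumor-like nuclei was at 2018, 427, 189 and 148 CPM in untreated 1 to 4 and at 134, 76.6, 206 and 51.5 CPM in Minnelide 1 to 4. Untreated 1 stood far above the rest and the groups overlapped (log2 fold change -2.35 ± 0.83, edgeR adjusted p = 0.449, -1.06 without untreated 1). Macrophage-like nuclei had 129 to 227 CPM of Col8a1 in the 3 untreated tumors that could be measured. The sum of 12 fibroblast markers in tumor-like nuclei was 1469 to 2303 CPM in untreated and 1455 to 2215 CPM in Minnelide tumors, with 2 of 12 at the higher mean with Minnelide. The sum of 11 endothelial markers there was 604 to 3756 CPM in untreated and 456 to 709 CPM in Minnelide tumors, with 0 of 11 at the higher mean with Minnelide, and 10 of the 11 were raised in the tumor-like cluster of untreated 1. The part of either list in the Col8a1 value was not tested. Col23a1 in tumor-like nuclei was at 17.5, 26.5, 33.0 and 16.9 CPM against 11.1, 17.4, 10.9 and 5.66 CPM (-1.0 ± 0.37, edgeR adjusted p = 0.449), and its log2 fold change was -0.46 with doublets kept and -0.43 at the coarser clustering. In endothelial-like nuclei it was at 28.8, 22.6, 10.3 and 50.04 CPM against 11.01, 12.7, 8.14 and 1.91 CPM (-1.56 ± 0.53, edgeR adjusted p = 0.576). Markers of muscle, where Col23a1 is also high, moved in the same direction. Summed over 12 myocyte markers, tumor-like nuclei had 1668 to 7416 CPM in untreated and 490 to 5888 CPM in Minnelide tumors and endothelial-like nuclei 2087 to 9807 CPM and 299 to 7078 CPM, with 0 of 12 markers at the higher mean with Minnelide in either class, and their part in the Col23a1 values was not tested. In tumor-like nuclei 0 of 41 genes were free of overlap between groups in either direction, where 1.58% of all genes were higher and 5.47% lower.

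In all retained nuclei Col5a3 was at 89.9, 76.2, 68.3 and 68.6 CPM in the untreated and at 34.8, 62.3, 47.4 and 35.5 CPM in the Minnelide tumors, without overlap (-0.59 ± 0.21, edgeR adjusted p = 0.472). Col12a1 and Col6a2 were also lower in all 4 Minnelide tumors there, so that 3 of 43 genes were, as 6.94% of all genes were, and 0 were higher (0.637%). Col27a1 was at 132, 157, 223 and 117 CPM against 65.3, 117, 78.4 and 86.3 CPM (-0.72 ± 0.27, edgeR adjusted p = 0.472). Untreated 4 and Minnelide 2 were nearly equal for Col27a1. Col5a3, Col12a1 and Col6a2 are genes led by fibroblast-like or pericyte-like nuclei. Within fibroblast-like nuclei the log2 fold change was 0.02 ± 0.26 for Col12a1, -0.21 ± 0.32 for Col6a2 and -0.22 ± 0.33 for Col5a3. Within tumor-like nuclei it was -0.38 ± 0.32 for Col12a1, -0.3 ± 0.32 for Col6a2 and -0.54 ± 0.28 for Col5a3 (edgeR adjusted p = 0.669, 0.743 and 0.495). In pericyte-like nuclei Col5a3 had a value of 0.53 ± 0.26 (edgeR adjusted p = 0.949), which was -0.21 with doublets kept. Col11a2, a minor fibrillar chain, was at 5.41, 70.4, 15.3 and 9.89 CPM in fibroblast-like nuclei of untreated 1 to 4 and at 6.25, 5.48, 7.42 and 4.43 CPM in Minnelide 1 to 4. Untreated 2 stood above the rest and the groups overlapped (-2.01 ± 0.78, edgeR adjusted p = 0.724, and -0.72 without untreated 2).

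For the main fibrillar chains the spread between tumors was larger than the difference between groups. In fibroblast-like nuclei the log2 fold change of Minnelide over untreated was -0.18 ± 0.65 for Col1a1, -0.27 ± 0.49 for Col1a2, -0.02 ± 0.29 for Col3a1 and 0.16 ± 0.24 for Col5a2. Leaving out single tumors moved that of Col1a1 from -0.64 to 0.60. Summed over the 11 fibrillar genes, fibroblast-like nuclei had 13796 ± 6909 CPM (SD, n = 4) in untreated and 12771 ± 3953 CPM in Minnelide tumors. In endothelial-like nuclei Col4a1 was at 1375, 1739, 1551 and 1564 CPM against 928, 1138, 1371 and 2315 CPM (-0.08 ± 0.30) and Col4a2 had a value of -0.12 ± 0.30.

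The treatment difference in fibroblast-like nuclei was also set against that in tumor-like nuclei of the same tumors. The contrast (fibroblast-like minus tumor-like, log2) was 0.65 ± 0.18 for Col9a1, 0.68 ± 0.19 for Col2a1 and 2.29 ± 0.69 for Col8a1, each with an edgeR adjusted p of 0.717. A total of 7 of 41 collagen genes were higher in this contrast at an unadjusted p below 0.05 (5.14% of all genes), the others being Col26a1, Col14a1, Col9a3 and Col4a5, and 1 lower (Col24a1, 1.56%). Of these 8, Col9a1, Col2a1, Col26a1, Col9a3 and Col4a5 are genes whose highest class was tumor-like, as was that of Col24a1, the 1 lower. Tumor markers were also higher with Minnelide in fibroblast-like nuclei, as given above, and their part in these contrasts was not tested. For Col8a1 the contrast was 1.72 without untreated 1. Col8a1 itself had a log2 fold change of 0.62 ± 0.39 in fibroblast-like nuclei, with Minnelide 3 highest at 4303 CPM.

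Genes that act on collagen were examined as 6 lists, and 0 of their genes passed an adjusted p below 0.05 by edgeR in tumor-like or fibroblast-like nuclei. Of the 20 genes of collagen folding and hydroxylation, 4 were higher and 0 lower at an unadjusted p below 0.05 in tumor-like nuclei, where 2.84% of all genes were higher and 7.94% lower. In the same nuclei 15 of 20 had a log2 fold change above 0, with a median of 0.43 beside -0.01 over all genes. The 4 were Plod3, Serpinh1, P4hb and P3h4. Plod3, a lysyl hydroxylase, was at 37.2, 41.2, 26.8 and 29.1 CPM in untreated and at 48.3, 35.3, 61.2 and 50.5 CPM in Minnelide tumors (0.65 ± 0.20, edgeR adjusted p = 0.447). Serpinh1, the chaperone HSP47 of the collagen triple helix, was at 155, 212, 159 and 99.9 CPM against 264, 170, 357 and 251 CPM (0.84 ± 0.28, adjusted p = 0.448). In fibroblast-like nuclei 1 of the 20 was higher and 0 lower, with a median of 0.38, and Plod3 had 0.74 ± 0.22 (edgeR adjusted p = 0.724).

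Of the TGF-beta ligands and matrix response genes, Tgfb1, the ligand itself, was at 71.1, 66.8, 62.9 and 71.8 CPM in tumor-like nuclei of untreated 1 to 4 and at 53.7, 38.5, 42.0 and 48.9 CPM in Minnelide 1 to 4. All 4 Minnelide tumors lay below the untreated ones (-0.48 ± 0.15, edgeR adjusted p = 0.447). In fibroblast-like nuclei 0 of the 14 genes of this list were past an unadjusted p of 0.05 in either direction, and Tgfb1 overlapped between groups (-0.34 ± 0.23, edgeR adjusted p = 0.811).

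Among 16 partners of basement membranes, 3 of the 13 tested in fibroblast-like nuclei were higher (Pxdn, Hspg2 and Nid2) and 0 lower at an unadjusted p below 0.05, where 2.86% of all genes were higher and 3.97% lower. Pxdn, the peroxidase that crosslinks type IV collagen, was at 86.8, 93.7, 91.4 and 105 CPM against 139, 141, 133 and 131 CPM, without overlap (0.58 ± 0.12, adjusted p = 0.714 by edgeR and 0.0181 by DESeq2). Hspg2, which encodes perlecan, was at 0.39 ± 0.15 (edgeR adjusted p = 0.724). In tumor-like nuclei the laminin chains Lamb1 and Lamb2 (0.44 ± 0.19 for Lamb2, edgeR adjusted p = 0.46) were the 2 higher and Lama5, another laminin chain, the 1 lower (-1.05 ± 0.34, adjusted p = 0.447).

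The other lists had few genes past an unadjusted p of 0.05. Of 13 genes of propeptide removal and crosslinking, 1 of those tested was higher and 1 lower in either class. These were Pcolce, an enhancer of procollagen processing (1.05 ± 0.42), and the propeptidase Adamts2 (-0.78 ± 0.26) in tumor-like nuclei, and Loxl1, a lysyl oxidase (0.52 ± 0.13), and Adamts14 (-0.71 ± 0.29) in fibroblast-like nuclei. Of 11 collagen breakdown genes tested, 0 were higher and 1 lower in either class, with 2 of 11 above 0 in each and medians of -0.49 in tumor-like and -0.51 in fibroblast-like nuclei. Mmp16 was the lower one in tumor-like nuclei (-1.55 ± 0.67). Mmp13, a collagenase, was at 198, 1751, 920 and 412 CPM in fibroblast-like nuclei of untreated 1 to 4 and at 81.9, 103, 137 and 496 CPM in Minnelide 1 to 4, with overlap (-2.01 ± 0.78, edgeR adjusted p = 0.724). Of 9 collagen receptors tested, 1 was higher and 2 lower (Lair1 and Itga2) in tumor-like nuclei, and in fibroblast-like nuclei 0 were higher and 1 lower (Itga10, -1.39 ± 0.56). Itga1, an integrin chain that binds collagen, was at 228, 450, 406 and 415 CPM against 517, 838, 467 and 734 CPM, without overlap (0.84 ± 0.31, edgeR adjusted p = 0.449), and Lair1, an inhibitory receptor of immune cells, was at -1.96 ± 0.55 (0.447 by edgeR and 0.0435 by DESeq2) from a mean of 9.76 CPM in the untreated tumors. The sum of 11 macrophage markers in tumor-like nuclei was 221 to 956 CPM in untreated and 193 to 314 CPM in Minnelide tumors, with 0 of 11 at the higher mean with Minnelide, and its part in the Lair1 value was not tested.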

How the data were processed

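The deposited matrices held UMI counts per gene and nucleus, made by the authors with Cell Ranger (version 7.0.1 per the labels, 9.0.1 per the file headers) against mm39. Whether a probe panel or poly-A priming was counted is not settled, so levels were compared within a gene only. Nuclei under 200 genes or with a posterior of at least 0.75 in a mitochondrial mixture model were removed (7951), as were 4480 Scrublet doublets. The rest were clustered (scanpy 1.11.5, 2000 variable genes without collagen, marker or pathway genes, 30 components, 40 neighbors, Leiden resolution 1.0) and named within each tumor when at least 3 markers were raised 1.5-fold. The naming rule was set after clusters and class sizes were seen. Counts were summed per tumor and class (at least 20 nuclei) and tested across all genes with edgeR 4.0.16 (quasi-likelihood, TMM, filterByExpr) in R 4.3.3, with DESeq2 1.42.0 as an alternative. Both were first tested on simulated counts with the same fixed dispersion for every gene, so that test does not cover the spread between these tumors. Named were up to 3 genes with the smallest p per fit, 5 with the highest mean CPM per collagen group, 3 leading per class, the 2 smallest p per pathway list in 2 classes, and all called. Genes outside that rule were named after their values were seen. The collagen genes and all lists were chosen with earlier results of these data known. Words on response in file names were not used. One gene of a pathway list is not reported here.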

Additional observations from a re-analysis of the deposited data

Results flagged for a closer look

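In 120 sets of 4 tumors examined for a tumor far from the others of its group, 7 such tumors were found, where chance gives about 1 in 20. Untreated 1 accounted for 5 of them. In tumor-like nuclei it had 2018 CPM of Col8a1, against 427 CPM in the next untreated tumor, and 20.7 CPM of Col9a1, against 258 CPM in the next. In endothelial-like nuclei it had 104 CPM of Col28a1, against 22.6 CPM, and 10.3 CPM of Col9a1, against 86.9 CPM. Its sum of basement membrane collagens in fibroblast-like nuclei was 1420 CPM, against 699 CPM. The sum of the other collagens over all retained nuclei was 2041 CPM in untreated 4, below 2892 CPM in the next untreated tumor. Mmp13 in fibroblast-like nuclei was at 496 CPM in Minnelide 4, against 137 CPM in the next Minnelide tumor. Untreated 1 formed clusters of its own in 4 classes, and untreated 4 had the lowest median UMI count.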

How the results depend on the processing

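No paired analysis was possible because the labels give the tumors no replicate numbers. The count of collagen genes at an adjusted p below 0.05 was 0 in all 7 edgeR fits and stayed at 0 with size factors by RLE, scaling by total UMIs alone, no low-count filter, doublets kept, Leiden resolution 0.5, and mixed clusters named (an alternative chosen after seeing the data). With each tumor left out in turn it ranged from 0 to 0. DESeq2 gave 1 in fibroblast-like and 1 in endothelial-like nuclei, Col4a5 in both, and 0 elsewhere. Counts at an unadjusted p below 0.05 ranged with a tumor left out from 0 to 14 in all retained nuclei, 1 to 5 in tumor-like, 4 to 13 in fibroblast-like, 2 to 6 in endothelial-like, 1 to 9 in pericyte-like, 2 to 8 in myocyte-like nuclei and 5 to 10 in the contrast between classes, where the main counts were 5, 4, 5, 4, 2, 3 and 8. Over all genes, the contrast had 686 higher and 208 lower of 13334. With a tumor left out it had 415 to 772 higher and 103 to 229 lower. The extremes of the collagen counts came without Minnelide 4 (0) and untreated 1 (14) in all retained nuclei, without Minnelide 4 (1) in tumor-like, untreated 1 (13) in fibroblast-like, Minnelide 3 (2) in endothelial-like and Minnelide 2 (9 and 8) in pericyte-like and myocyte-like nuclei. Over all genes, tumor-like nuclei had 369 higher and 1033 lower of 13014, and 243 and 677 of 13250 without Minnelide 4. Endothelial-like nuclei had 361 and 431 of 9288, and 172 and 202 of 8900 without Minnelide 3. Pericyte-like nuclei had 139 and 155 of 5762, and 248 and 293 of 6879 without Minnelide 2. Myocyte-like nuclei had 161 and 178 of 10122, and 297 and 319 of 10271 without Minnelide 2. Other settings moved the collagen counts to 9 in all retained nuclei (total UMIs alone), 7 in tumor-like (mixed clusters named), 3 in fibroblast-like and 7 in myocyte-like (Leiden 0.5) and 8 in endothelial-like nuclei (no low-count filter). Over all genes, the counts higher and lower at these settings were, in the same order, 101 and 1639 of 13811, 329 and 1005 of 13126, 238 and 322 of 11472, 351 and 394 of 10232, and 587 and 580 of 15313. Among the log2 fold changes of the 3 genes with the smallest p in each fit, Col5a3 in pericyte-like nuclei turned from 0.53 to -0.21 with doublets kept, and the cause was not tested. Leiden 0.5 does not apply to all retained nuclei. At that setting 4596 nuclei of untreated 1 were unnamed and 10 were endothelial-like, so the endothelial-like fit held 3 untreated tumors. No cluster was named macrophage-like there. Pericyte-like nuclei were compared over 3 tumors a group, with at most 125 nuclei a tumor. Myocyte-like nuclei ranged from 35 to 1740 a tumor.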
